A study of Mus musculus with 17 samples.

Results

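Cells hold their cholesterol and fatty acid supply steady through the SREBP transcription factors, and 8 genes of that sensing and cleavage machinery are described here: Srebf2, Srebf1, Scap, Insig1, Insig2, Mbtps1, Mbtps2 and Stard4. They were chosen by symbol, as a group of known function, with earlier results of these data known, and 8 of 8 were found in each of the 4 deposited count tables, out of 35841 genes listed in any of them. SREBPs are made as precursors in the membrane of the endoplasmic reticulum, bound to the cholesterol sensor SCAP. When sterol is low, SCAP carries them in COPII vesicles to the Golgi, where the site-1 and site-2 proteases release the part that enters the nucleus. When sterol is high, INSIG proteins hold the SCAP complex in the endoplasmic reticulum. In the brain cholesterol is made locally, astrocytes export it on particles that carry ApoE, and neurons can take it up from them.

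RNA was sequenced from 17 mouse libraries of the C57BL/6 strain, 14 from cultured primary neurons and 3 from hippocampus. The neurons fall into 7 groups of 2 libraries: ADM-treated neurons and their control, a first set of ApoE particle and control neurons (set 1), and a second set in which neurons received a control treatment, the ApoE particle or a reconstituted ApoE particle (set 2). The hippocampus groups hold 1 library each, from mice given a control short hairpin RNA (shRNA) without FC, the control shRNA with FC, or an shRNA against ApoE with FC. ADM, FC, the doses and the times are not spelled out in the labels, nor are the ages of the mice, the source and lipid content of the particles, the control treatments, the number of animals behind a library or the way the shRNA was delivered. Nor do the labels tell if a group's libraries are separate cultures, so the p-values measure only the spread between these samples, which may be technical.

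The 17 libraries held between 14.62 M and 19.14 M counts each, and levels are given as CPM, a gene's counts per 1 M counts of its library. Fold changes are log2 values with 1 standard error from edgeR after TMM scaling, which corrects library totals for a shift in composition, and a gene is said to have risen or fallen where its p-value, adjusted over all genes tested, was below 0.05. Neuron markers such as Map2 and Snap25 summed to between 4614 and 6341 CPM over 12 genes in the neuron libraries, so the labelled cell type was present. Astrocyte markers such as Gfap and Aqp4 were present too, and their sum over 10 genes ran from 704.9 to 4667 CPM. These are bulk samples, in which fewer cells of a type and less RNA per cell cannot be told apart.

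Sterol control of these genes is known to act partly on their own promoters, so the 250 bases before the annotated start are shown for Srebf2 and Insig1, which SREBPs are known to induce, and for Srebf1, which moved in opposite directions in the particle sets below. They were read from RefSeq sequence of build GRCm38.p6, 5′ to 3′ in the direction of the gene, and the capitals mark matches to the motifs searched. The Srebf2 window lies at chr15:82147019-82147268 on the plus strand, the Insig1 window at chr5:28071162-28071411 on the plus strand, and the Srebf1 window at chr11:60210472-60210721 on the minus strand, before the most downstream of its 3 listed starts.
Srebf2: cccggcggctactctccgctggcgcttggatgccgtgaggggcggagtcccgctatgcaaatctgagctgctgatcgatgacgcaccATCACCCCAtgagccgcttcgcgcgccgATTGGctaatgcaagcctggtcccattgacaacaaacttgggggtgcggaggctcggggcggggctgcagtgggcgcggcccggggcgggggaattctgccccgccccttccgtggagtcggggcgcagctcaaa
Insig1: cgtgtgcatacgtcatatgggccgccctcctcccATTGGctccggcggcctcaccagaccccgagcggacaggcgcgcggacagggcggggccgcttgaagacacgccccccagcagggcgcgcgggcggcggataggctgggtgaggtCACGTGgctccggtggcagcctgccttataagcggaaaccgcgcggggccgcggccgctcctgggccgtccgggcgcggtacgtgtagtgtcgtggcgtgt
Srebf1: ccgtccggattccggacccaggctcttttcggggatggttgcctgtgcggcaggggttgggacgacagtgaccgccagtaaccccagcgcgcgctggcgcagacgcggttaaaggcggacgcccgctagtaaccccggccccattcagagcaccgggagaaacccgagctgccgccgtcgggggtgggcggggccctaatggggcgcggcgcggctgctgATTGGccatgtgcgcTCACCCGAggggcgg

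A total of 4 patterns were searched on both strands of these windows, and a match is a description of the letters only. The Srebf2 window held ATCACCCCA, a form of the sterol regulatory element ATCACNCCA, 163 bases before the start, and 0.713% of the 32817 windows of the same length in the table hold that pattern. It also held ATTGG, which is CCAAT on the opposite strand and the core of the site for the SREBP partner NF-Y, 135 bases before the start. CCAAT is common, being found in 33.8% of all windows. The Srebf1 window held TCACCCGA, a match to the shorter core TCACNCNA that overlaps the longer pattern and that 9.11% of windows hold, 15 bases before the start. An ATTGG stood 30 bases before the same start. Of the 3 Srebf1 windows it is the one shown because it alone held a sterol core match. The window before the second start held no match and that before the third held CCAAT 166 bases upstream, and the first bases after the start shown and after the second were not found in a GENCODE M21 transcript, while those after the third were. The Insig1 window held an E-box, CACGTG, 101 bases before the start (6.02% of windows) and an ATTGG 216 bases before it, and no match to either sterol element in these letters. Over all members, 12 windows of 7 genes were in the table. Scap had an E-box 40 bases before the second of its 2 starts, Insig2 had CCAAT or its complement 3 times before the third of its 3 starts, and the single windows of Mbtps1 and Mbtps2 held no match.

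In control neurons Srebf2 RNA was the most abundant of the 8 and the genes of the site proteases and Insig2 were among the scarcest. Levels were compared between genes per kilobase of exon, with exon lengths from GENCODE M21. In the set 1 controls Srebf2, which encodes the SREBP mainly concerned with cholesterol, stood at 54.5 ± 2.40 CPM per kb (SD, n = 2). Insig1, the INSIG gene that is itself an SREBP target, followed at 41.5 ± 1.63, and Srebf1, which encodes the SREBP mainly concerned with fatty acids, at 21.5 ± 2.53 CPM per kb. Stard4, a soluble carrier that moves sterol between membranes, was at 13.5 ± 1.86 and Scap at 12.7 ± 1.10, a pair whose SD ranges overlapped. Below them came Mbtps1, which encodes the site-1 protease, at 9.15 ± 0.291, Insig2, the INSIG gene not known as a direct SREBP target, at 7.02 ± 0.813, and Mbtps2, which encodes the site-2 protease, at 6.44 ± 0.545 CPM per kb, the last pair again overlapping. In the set 2 controls the order began in the same way, with Srebf2 at 56.5 ± 0.651, Insig1 at 30.6 ± 2.11 and Srebf1 at 25.4 ± 0.771 CPM per kb, and it ended with Insig2 at 6.18 ± 0.274. The ADM controls differed in that Srebf1 stood lower, at 10.9 ± 3.0 CPM per kb, a spread that covered the means of its neighbours Stard4 (12.03 ± 1.05) and Scap (9.84 ± 0.362).

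Per library, the 6 control neuron libraries held Srebf2 between 361.7 and 409.5 CPM, a span of 1.13 times, which was the narrowest of the 8 genes. Srebf1 had the widest span, from 49.34 to 146.5 CPM (2.97 times), and its lowest values were the ADM controls at 49.34 and 73.24 CPM. Stard4 ranged from 53.83 to 82.67 CPM and Insig1 from 90.11 to 132 CPM. Insig2 stayed between 20.79 and 26.37, Mbtps1 between 87.43 and 104.6, Mbtps2 between 61.14 and 84.28, and Scap between 71.36 and 107.3 CPM. The plot of CPM by library shows all 17 libraries for each gene.

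**Figure D1:**
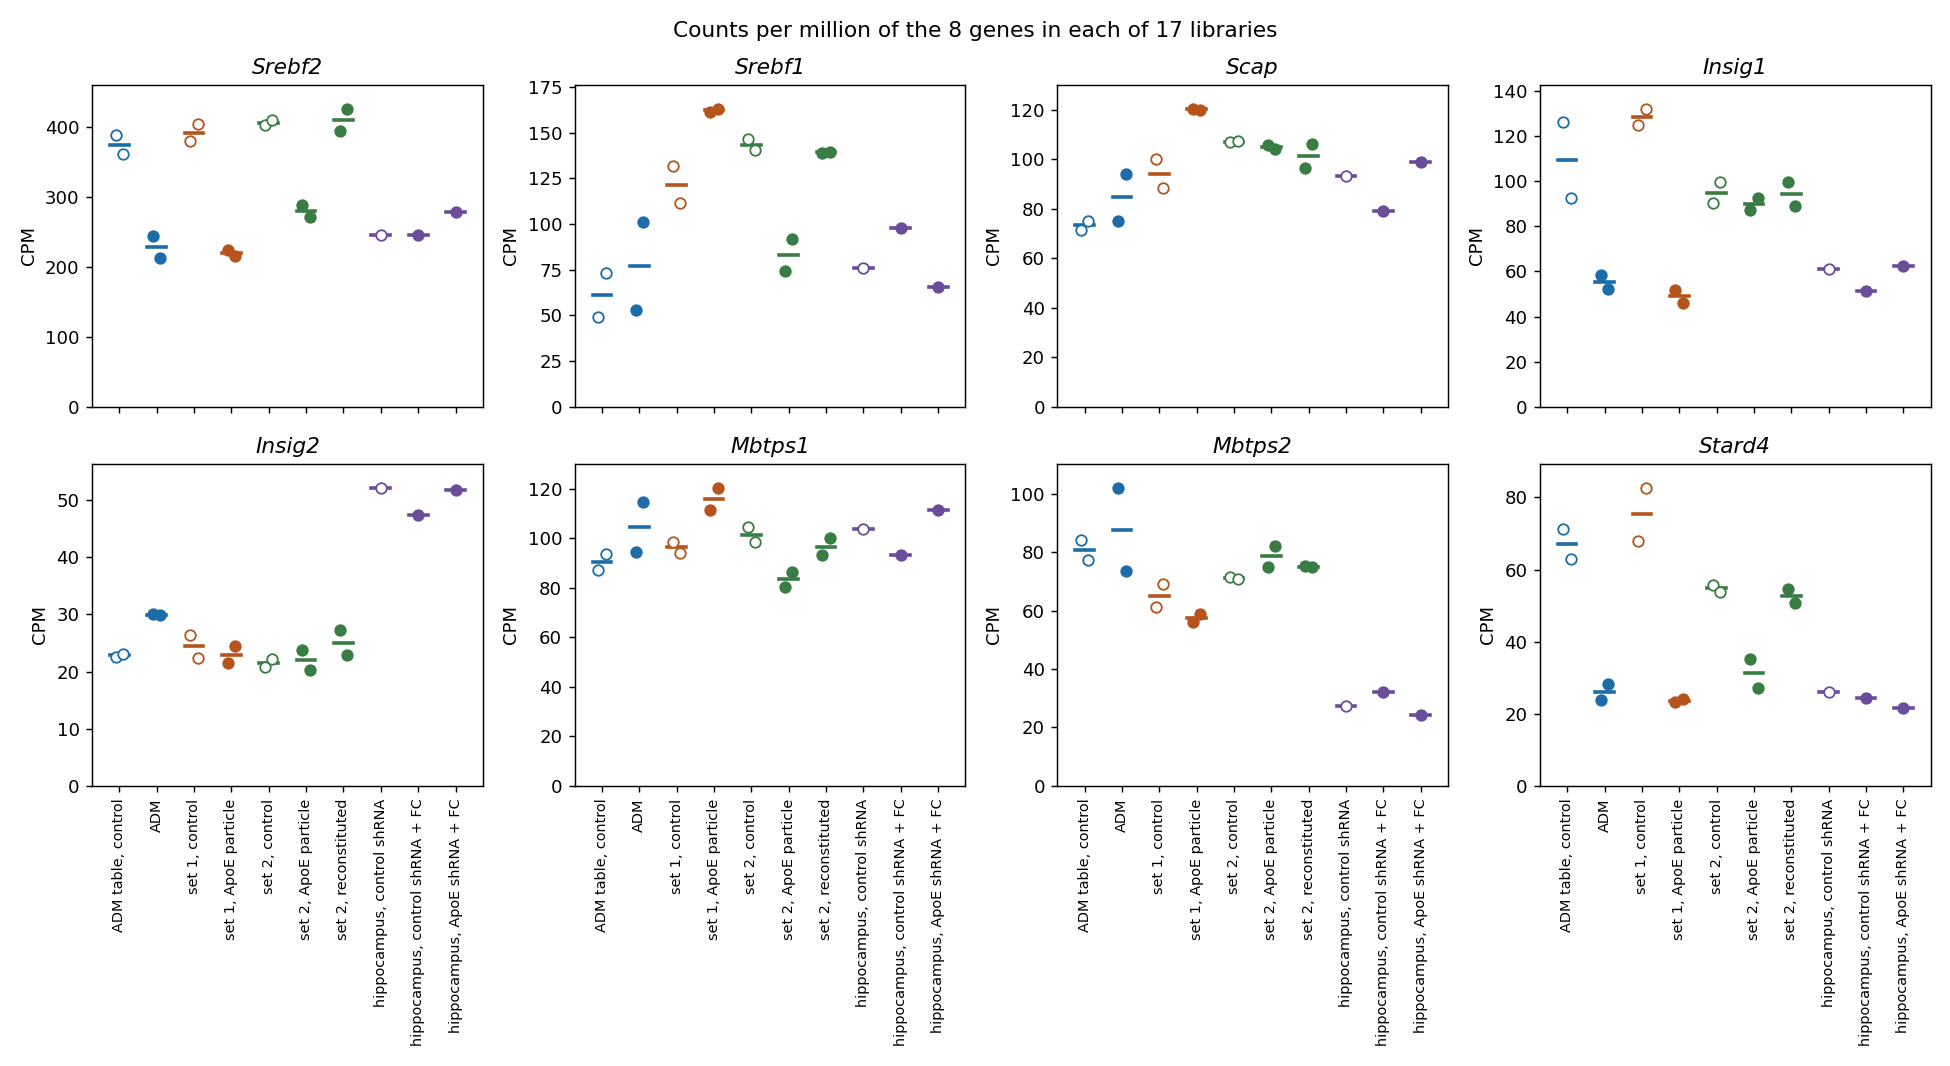
Each panel plots 1 gene, with CPM on the vertical axis (from 0) and the 10 groups on the horizontal axis. Points are libraries, open for control groups (in hippocampus, the control shRNA without FC), and bars are group means. Srebf2, Insig1 and Stard4 were lower in the ADM and set 1 particle libraries than in their controls, and Srebf1 was higher with the particle in set 1 and lower in set 2.

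The set 1 comparison asks which transcripts of primary neurons change with an ApoE particle. Of the 8 genes, 4 fell and 2 rose, beside 36.4% called among 16475 tested genes (17.4% fell and 18.9% rose). The falls were large for Stard4, Insig1 and Srebf2, and the other called changes were at most 0.32 in size on the log2 scale. Stard4 (ENSMUSG00000024378, chromosome 18) was at 67.97 and 82.67 CPM in the controls and at 23.30 and 24.01 with the particle. Both particle libraries lay far below both controls, and the log2 fold change was −1.78 ± 0.12 (adjusted p = 2.62e-06).

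Insig1 (ENSMUSG00000045294, plus strand of chromosome 5, 28071363 to 28078662 in mm10) went from 124.9 and 132 CPM to 51.98 and 45.86, with no overlap, and its log2 fold change was −1.50 ± 0.10 (adjusted p = 2.34e-06). Insig2 (ENSMUSG00000003721, minus strand of chromosome 1, 121304353 to 121332589) overlapped between the groups, at 26.37 and 22.38 CPM in the controls and 21.40 and 24.54 with the particle (−0.19 ± 0.13, adjusted p = 0.287). The interval of its difference, −0.46 to 0.09, did not reach the size of the Insig1 fall. The Insig1 to Insig2 ratio per kilobase went from 5.32 and 6.63 in the control libraries to 2.73 and 2.1 with the particle.

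Srebf2 (ENSMUSG00000022463, plus strand of chromosome 15, 82147266 to 82205376) was at 379.4 and 403.8 CPM in the controls and 224.4 and 215.6 with the particle. It fell by 0.94 ± 0.09 (adjusted p = 2.43e-05), and the libraries did not overlap. Srebf1 (ENSMUSG00000020538, minus strand of chromosome 11, 60199089 to 60222581) moved the other way, from 131.5 and 111.3 CPM to 161.5 and 163, and rose by 0.32 ± 0.09 (adjusted p = 0.0214). Per kilobase the Srebf2 to Srebf1 ratio thus went from 2.26 and 2.85 to 1.09 and 1.04, so that both SREBP genes stood at nearly the same level in the particle libraries.

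Scap and the protease genes changed little. Scap (ENSMUSG00000032485, plus strand of chromosome 9, 110333288 to 110384950) was at 99.96 and 88.43 CPM and then at 120.4 and 120, a rise of 0.25 ± 0.09 (adjusted p = 0.0444). Mbtps2 (ENSMUSG00000046873, minus strand of chromosome X, 157535371 to 157598715) was at 61.14 and 68.93 CPM and then at 56.09 and 58.66, and fell by 0.29 ± 0.10 (adjusted p = 0.0387). Mbtps1 (ENSMUSG00000031835, minus strand of chromosome 8, 119508156 to 119558735) was at 98.64 and 94.31 CPM and then at 111.5 and 120.5, a difference that missed the threshold (0.16 ± 0.08, adjusted p = 0.162). The changes of Scap and Srebf1 were lost when either particle library was left out (Scap adjusted p = 0.317 and 0.291, Srebf1 0.159 and 0.174), and so was that of Mbtps2 (0.281 and 0.200), which also missed the threshold without the second control library (0.0654), while the falls of Stard4, Insig1 and Srebf2 held in all 9 alternatives. By DESeq2 Scap and Mbtps2 were not called (adjusted p = 0.0979 each), and without the filter on low counts Scap was not (0.0541). Mbtps1 was called without the first control library (0.19, adjusted p = 0.0280). Scaling by library totals moved the share of called genes that rose from 52.0% to 65.6%, and with it Mbtps2 missed the threshold (−0.18, adjusted p = 0.168) and Mbtps1 passed it (0.27, adjusted p = 0.0305).

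Targets of both SREBPs were mostly lower in the set 1 particle libraries, beside 17.4% of all tested genes that fell. Of 14 tested genes that SREBP2 is known to drive, 14 fell, with a median of −1.72 against −0.01 for all genes. Mvd, of the mevalonate pathway, fell by 2.73 ± 0.11 from 101.5 ± 3.04 CPM to 16.4 ± 2.09. Hmgcs1, at the entry to the pathway, fell by 1.87 ± 0.10 and Dhcr7, at the end of cholesterol synthesis, by 1.76 ± 0.09. Of 12 fatty acid synthesis genes known as SREBP1 targets, 9 fell and 1 rose (median −0.47), although Srebf1 itself had risen. Elovl6, an elongase, fell by 1.13 ± 0.09, Acly, which makes cytosolic acetyl-CoA, by 1.14 ± 0.10 and Fasn, the fatty acid synthase, by 1.04 ± 0.10, whereas Gpam, which starts glycerolipid synthesis and was named after its values were seen, rose by 0.41. The SREBP2 target list was drawn up with its earlier result in these data known, so its direction is not independent of that.

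Genes that handle the SCAP and INSIG proteins were mixed in set 1, beside 36.4% called among all tested genes (18.9% rose and 17.4% fell). Of 12 genes of INSIG turnover and sterol-regulated degradation, 1 rose and 3 fell (median −0.11): Erlin2, of a membrane complex in sterol-regulated degradation, rose by 0.35 ± 0.09, and the deubiquitinase gene Usp20, the ubiquitin ligase gene March6 and Ube2g2 fell by 0.34, 0.34 and 0.32. Of 11 COPII coat genes, 4 rose and 1 fell (median 0.09), with Sec23a at −0.42 ± 0.09, Sec13 at 0.38 ± 0.11, Sec23b at 0.30 ± 0.09, and Sec24d and Sec31b at 0.29 and 1.35. Of 14 genes of SREBP cofactors, stability and retention, 2 rose and 2 fell (median 0.03). The partner factor Sp1 rose by 0.65 ± 0.10 and the chaperone gene Hsp90b1 by 0.49 ± 0.09, while Fbxw7, which targets nuclear SREBP for degradation, fell by 0.54 ± 0.08 and Pgrmc1, which encodes a membrane protein reported to bind INSIG1, by 0.35.

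Relatives of the members by function also split, beside the same 36.4% called among all genes. Among 6 tested substrates of the same proteases other than SREBPs, 2 rose and 1 fell: Creb3l2 rose by 1.22 ± 0.15, Creb3l1 by 0.76 ± 0.16, and Gnptab, of the lysosomal sorting tag, fell by 0.42 ± 0.10. Among 14 other intracellular sterol carriers, 6 rose and 3 fell (median −0.03), led by Tspo of the outer mitochondrial membrane (2.34 ± 0.20, from 3.18 ± 0.506 to 17.3 ± 3.06 CPM). Stard5, of the same lipid-binding family as Stard4, rose by 1.01 ± 0.19 from 7.42 ± 2.11 to 15.9 ± 0.3 CPM, the reverse of the Stard4 change. Gramd1a, a sterol transporter of the endoplasmic reticulum, fell by 0.49 ± 0.09.

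Markers of other cells moved in the same set 1 libraries, beside 36.4% called among all tested genes. The summed astrocyte markers were at 3347 and 3013 CPM in the controls and at 4667 and 4513 with the particle, and 8 of 10 rose and 1 fell. Proliferating cell markers rose in 10 of 10 cases, microglia markers in 9 of 9 tested, with a summed level of 95.9 and 83.1 CPM in the controls against 329 and 323.4, and neuron markers fell in 11 of 12. Of 10 vessel and fibroblast markers 6 rose and 1 fell, with Cldn5 at 0 in all 4 libraries. Oligodendrocyte lineage markers split, with 4 rises and 4 falls among 9 tested. Tmem119 of the microglia list was at 0 in the second control library. Apoe itself went from 1569 and 1100 CPM to 2460 and 2408. The part of these markers in the member changes was not tested.

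In set 2 the ApoE particle was compared with control neurons again, beside a reconstituted ApoE particle. With the ApoE particle 4 of the 8 genes fell and 0 rose, beside 22.1% called among 16388 tested genes (12.1% fell and 10% rose). Those 4 were Stard4, Srebf1, Srebf2 and Mbtps1, and each was called in all 10 alternatives. Stard4 was at 55.71 and 53.83 CPM in the controls and at 35.30 and 27.05 with the particle, and fell by 0.82 ± 0.10 (adjusted p = 1.47e-05). Srebf2 went from 402.9 and 409.5 CPM to 289.1 and 272, a fall of 0.54 ± 0.05 (adjusted p = 7.7e-09).

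Srebf1 fell by 0.79 ± 0.07 in set 2 (adjusted p = 9.9e-08), from 146.5 and 140.4 CPM to 74.38 and 91.54. This is the reverse of its set 1 direction. Mbtps1 went from 104.6 and 98.51 CPM to 80.57 and 86.59, a fall of 0.28 ± 0.06 (adjusted p = 0.00205). In neither gene did the particle libraries overlap the controls.

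The other 4 genes missed the threshold. Insig1 was at 90.11 and 99.38 CPM in the controls and at 87.11 and 92.38 with the particle, overlapping groups with a log2 fold change of −0.08 ± 0.07 (adjusted p = 0.450) and an interval from −0.23 to 0.06, so a fall of the set 1 size lay outside it. Insig2 (0.04, interval −0.21 to 0.28) and Scap (−0.03, interval −0.16 to 0.09) had differences within their errors. Mbtps2 had 71.54 and 70.93 CPM against 74.91 and 82.20 with the particle (0.14 ± 0.07, adjusted p = 0.148). The Insig1 to Insig2 ratio per kilobase was 4.87 and 5.04 in the controls and 4.12 and 5.10 with the particle, and the Srebf2 to Srebf1 ratio was 2.16 and 2.29 against 3.05 and 2.33.

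SREBP targets were lower in set 2 as well, beside 12.1% of all tested genes that fell. Of 15 SREBP2 targets 10 fell and 0 rose (median −0.53 against 0.00 for all genes). Mvd fell by 1.29 ± 0.08, Idi1, which isomerizes isopentenyl diphosphate, by 0.97 ± 0.09 and Cyp51, which demethylates lanosterol, by 0.72 ± 0.06. Of 12 SREBP1 targets 7 fell and 0 rose (median −0.31), led by the desaturase gene Scd1 (−0.81 ± 0.06), Fasn (−0.44 ± 0.04) and Gpam (−0.61 ± 0.06), and here Srebf1 fell as well.

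Genes of SREBP cofactors, stability and retention split in set 2. Hsp90b1, whose protein is a chaperone of the endoplasmic reticulum, rose by 0.85 ± 0.05 from 149.5 ± 0.676 to 270 ± 5.05 CPM, Nfya, a subunit of the NF-Y factor, by 0.69 ± 0.06 and Pgrmc1 by 0.39 ± 0.04. With 2410131K14Rik, the older symbol of Spring1 whose product is needed for site-1 protease activity and which rose by 0.41, they made 4 rises among 14 genes. The 4 falls were Fbxw7 (−0.30), Lpin1 (−0.31), the acetyltransferase gene Ep300 (−0.20) and the LXR gene Nr1h2 (−0.24). Of 12 INSIG turnover genes March6 and Erlin1 rose by 0.21 and 0.34 and Vcp, the ATPase that extracts proteins from the membrane, fell by 0.20. Of 11 COPII genes 2 rose, Sec13 by 0.30 ± 0.08 and Sar1b by 0.29 ± 0.08, and 0 fell.

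Among 7 tested other substrates of the proteases 2 rose and 1 fell in set 2, beside the 22.1% called among all genes. Atf6, the stress sensor cleaved by the same proteases, rose by 0.47 ± 0.08 and Creb3l1 by 0.46 ± 0.15, and Creb3l2 fell by 0.46 ± 0.14. Of 14 sterol carriers 3 fell and 0 rose: Tspo by 1.85 ± 0.23, Gramd1b by 0.18 and Gramd1a by 0.16.

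Astrocyte and proliferating cell markers were lower in the same libraries, beside 22.1% called among all tested genes. The summed astrocyte markers were at 1722 and 1604 CPM in the controls and at 1100 and 1222 with the particle, with 8 falls and 1 rise among 10. Proliferating cell markers fell in 9 of 10 cases and vessel and fibroblast markers in 5 of 9. Neuron markers had 5 falls and 1 rise among 12. Microglia markers summed to between 9.7 and 12.9 CPM in all 6 set 2 libraries. C1qa, C1qb and C1qc were at 0 in both ApoE particle libraries, as was C1qa in the first control and C1qb in the second. Apoe was not called (−0.08 ± 0.08, adjusted p = 0.559). The part of these markers in the member changes was not tested.

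**Figure D2:**
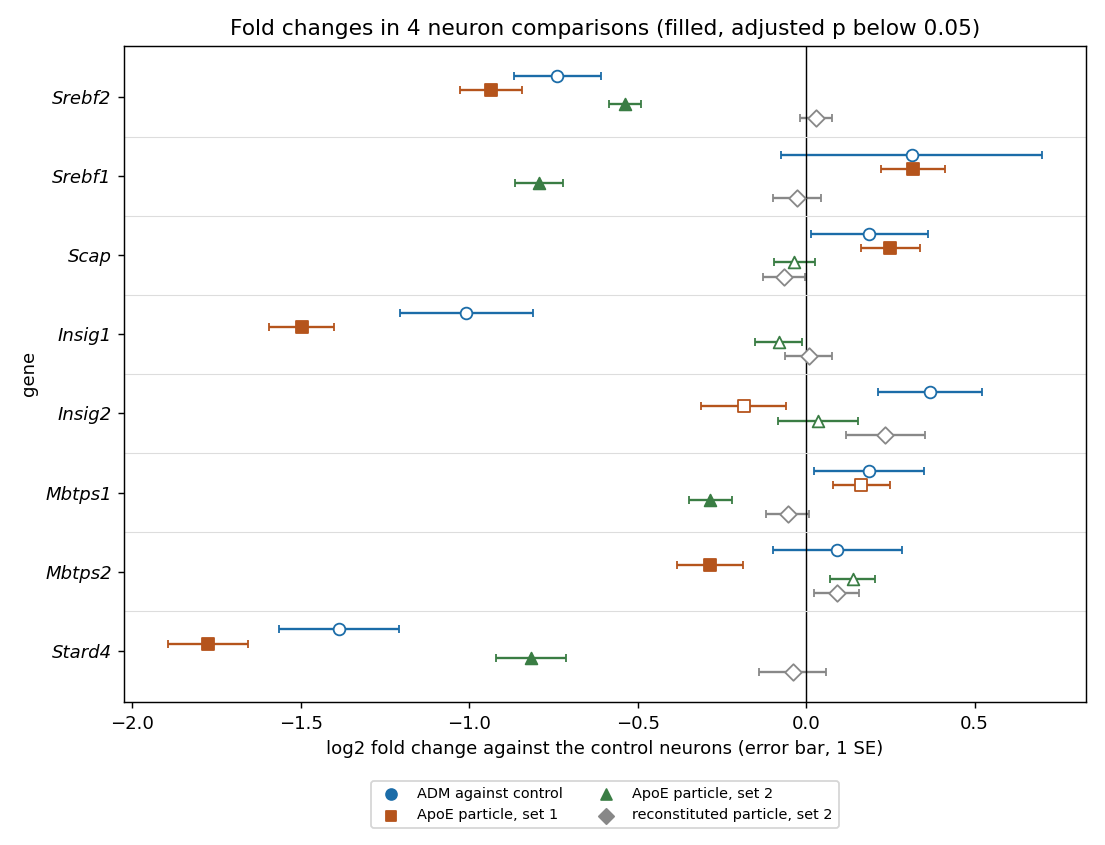
The horizontal axis gives the log2 fold change against the control neurons of the same experiment, with 1 SE, for each gene on the vertical axis. Filled points passed an adjusted p of 0.05. Stard4, Insig1 and Srebf2 had the 3 lowest values in set 1 (−1.78, −1.50 and −0.94), Srebf1 lay on opposite sides of 0 in the particle sets (0.32 and −0.79), and the reconstituted particle had no filled point.

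The reconstituted particle was compared with the same controls as the ApoE particle. By edgeR 0 of 16388 genes were called with it (0.0%), with 776 at an unadjusted p below 0.05, and 0 of the 8 members were called, with 0 at an unadjusted p below 0.05. DESeq2 also called 0 genes and 0 members. Srebf2 was at 394.4 and 425.9 CPM, around the control values, with a log2 fold change of 0.03 ± 0.05 and an interval from −0.07 to 0.13. Srebf1 was at 138.9 and 139.6 CPM (−0.03, interval −0.17 to 0.12) and Stard4 at 54.71 and 50.64 CPM (−0.04, interval −0.25 to 0.17). Insig1 stood at 99.41 and 88.99 CPM (0.01, interval −0.14 to 0.15). These intervals leave out changes of the size the ApoE particle gave in Srebf2, Srebf1 and Stard4. The widest interval was that of Insig2, at 27.17 and 22.80 CPM (0.24, from −0.01 to 0.48). Scap was at 96.56 and 106 CPM, Mbtps1 at 93.40 and 100.1, and Mbtps2 at 75.09 and 74.98.

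Set directly against the ApoE particle, the reconstituted particle libraries were higher in 4 of the 8 genes, beside 20.3% of all tested genes that differed (11.4% higher and 8.88% lower). This comparison reuses the ApoE particle libraries. The differences were 0.78 ± 0.10 for Stard4, 0.77 ± 0.07 for Srebf1, 0.57 ± 0.05 for Srebf2 and 0.23 ± 0.06 for Mbtps1 (adjusted p = 2.84e-05, 1.62e-07, 2.97e-09 and 0.0119). That of Mbtps1 missed the threshold without the first ApoE particle library (adjusted p = 0.132) or the second reconstituted library (0.123). Insig1 differed by 0.09 (interval −0.06 to 0.23), Insig2 by 0.20 (−0.04 to 0.44), Scap by −0.03 (−0.16 to 0.10) and Mbtps2 by −0.05 (−0.18 to 0.09). Of the SREBP2 targets 10 of 15 were higher with the reconstituted particle and 0 lower, and of the SREBP1 targets 7 of 12 and 0. The summed astrocyte markers in the reconstituted libraries were 1608 and 1704 CPM, inside the control range of 1604 to 1722, and higher than the 1100 and 1222 CPM of the ApoE particle.

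The ApoE particle effects of both sets were then compared by an interaction term, which is the set 2 log2 fold change minus that of set 1. It was called for 7 of the 8 genes, beside 31.1% of 17098 tested genes (14.8% positive and 16.4% negative). For Insig1 the term was 1.39 ± 0.12 (adjusted p = 8.19e-07), for Stard4 0.93 ± 0.18 (0.00157), for Mbtps2 0.40 ± 0.12 (0.0175) and for Srebf2 0.37 ± 0.10 (0.0101), each meaning a smaller fall or a higher value in set 2. It was −1.14 ± 0.13 for Srebf1 (adjusted p = 1.23e-05), −0.48 ± 0.10 for Mbtps1 (0.00236) and −0.31 ± 0.10 for Scap (0.0296). For Insig2 it was 0.19 ± 0.18 (adjusted p = 0.441). Of the SREBP2 targets 13 of 15 had a called positive term and 0 a called negative one, with a median of 0.95 over the list. Leaving out single libraries gave 4 to 7 called members. Scap was called in 5 of 13 alternatives and missed the threshold by DESeq2 (adjusted p = 0.0574), without the filter on low counts (0.0647) and without any one of the particle or set 2 control libraries (0.0688 to 0.103). Mbtps2 missed it without 5 of those 6 (0.0503 to 0.0848, the exception being the first set 2 particle library), and Srebf2 missed it without the second set 1 particle library (0.0716), the first set 2 particle library (0.0684) or the first set 2 control (0.0588). The terms of Insig1, Stard4, Srebf1 and Mbtps1 were called in all 13 alternatives. Set and any difference in culture, particle or date between the sets cannot be told apart.

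The level of Srebf1 and the summed astrocyte markers stand beside each other in the plot of Srebf1 against the summed markers. In set 1 both were higher with the particle, and in set 2 both were lower. Proliferating cell markers also rose in set 1 (10 of 10) and fell in set 2 (9 of 10). Within the ADM controls Srebf1 was at 49.34 and 73.24 CPM where the summed astrocyte markers were at 704.9 and 1378. With ADM Srebf1 was at 52.99 and 101.1 CPM where those markers were at 1095 and 1277. Across experiments the levels did not line up, since the set 2 controls had more Srebf1 (146.5 and 140.4 CPM) than the set 1 controls (131.5 and 111.3 CPM) at lower summed markers. The part of the markers in the Srebf1 changes was not tested.

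**Figure D3:**
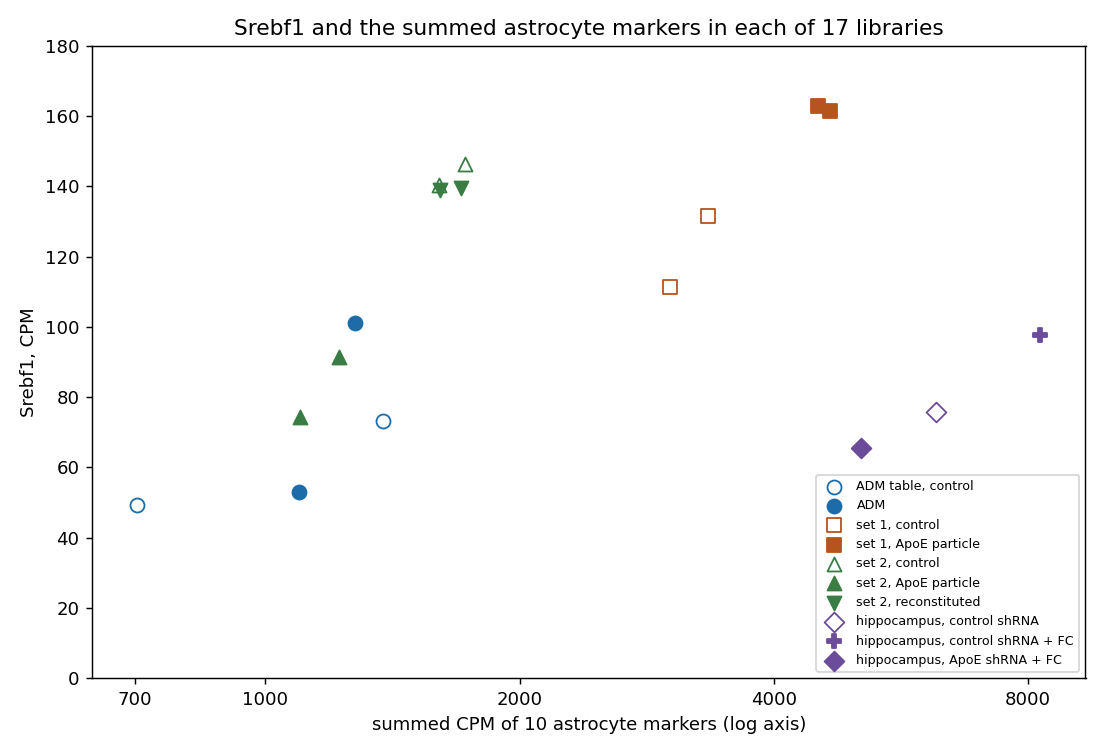
Each point is 1 of 17 libraries, with the summed CPM of 10 astrocyte markers on a log horizontal axis and Srebf1 CPM on the vertical axis. Colours mark the experiments, and open points are control groups (in hippocampus, the control shRNA without FC). In set 1 the particle libraries lay above and to the right of the controls, and in set 2 they lay below and to the left, at 74.38 and 91.54 CPM.

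The ADM comparison asks how neurons treated with ADM differ from their control. By edgeR 0 of 16191 genes were called (0.0%), with 1425 at an unadjusted p below 0.05, so 0 of the 8 members were called, and 3 of them had an unadjusted p below 0.05. These were Stard4, Insig1 and Srebf2, and all 3 were lower in both ADM libraries than in both controls. Stard4 was at 71.36 and 63.05 CPM in the controls and at 23.86 and 28.33 with ADM (−1.39 ± 0.18, unadjusted p = 0.000707, adjusted p = 0.428). Insig1 was at 126 and 92.47 CPM and then at 58.47 and 52.00 (−1.01 ± 0.20, adjusted p = 0.473). Srebf2 was at 387.8 and 361.7 CPM and then at 244.2 and 213 (−0.74 ± 0.13, adjusted p = 0.473).

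DESeq2 called 333 genes and these 3 members, with adjusted p-values of 5.63e-06 for Stard4, 0.0053 for Insig1 and 0.0036 for Srebf2, and edgeR without the filter on low counts called 128 genes and the same 3. The ADM libraries differed from each other more than any other pair, since their chi-square over its degrees of freedom was 68.1 against 2.63 to 26 in the other groups. Leaving out the second ADM library gave 47 called genes and 1 member, Stard4 (−1.55, adjusted p = 0.0357), and leaving out the first gave 641 genes and 2 members, Stard4 and Srebf2. The second ADM library held 1214 CPM of summed vessel and fibroblast markers, against 69.9 in the first and 24.5 and 90.0 in the controls, and the part of this in the member values was not tested.

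The other 5 members had an unadjusted p above 0.05 with ADM. Insig2 was higher in both ADM libraries, at 30.02 and 29.88 CPM against 22.62 and 23.09 (0.37 ± 0.15, unadjusted p = 0.0663, adjusted p = 0.588). Srebf1 overlapped widely, at 52.99 and 101.1 CPM against 49.34 and 73.24 (0.31 ± 0.39), and so did Mbtps2, at 102 and 73.40 against 84.28 and 77.16. Scap was at 75.22 and 94.08 CPM against 71.36 and 75.17, and Mbtps1 at 94.50 and 114.6 against 87.43 and 93.61. Before TMM scaling each was higher in both ADM libraries than in both controls, Scap barely so. The log2 fold changes after scaling were smaller than their errors allow to call (0.19 ± 0.17 and 0.19 ± 0.16). Over the alternatives they ran from −0.02 to 0.35 for Scap and from 0.01 to 0.33 for Mbtps1. The Insig1 to Insig2 ratio per kilobase was 6.26 and 4.50 in the controls and 2.19 and 1.95 with ADM. Of the SREBP2 targets 13 of 15 had an unadjusted p below 0.05, all of them lower, with a median of −1.06 against 0.01 for all genes, and 0 were called.

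The ADM effect was also set against the set 1 particle effect, with the difference coded as ADM minus particle. By edgeR it was called for 0 of 17292 genes (0.0%), with 1768 at an unadjusted p below 0.05, and for 0 members. Insig2 was the only member with an unadjusted p below 0.05 (0.51 ± 0.20, adjusted p = 0.441). DESeq2 called 237 genes and 0 members. The intervals were wide, from −0.16 to 0.85 for Stard4, −0.08 to 0.97 for Insig1, −0.20 to 0.50 for Srebf2 and −1.12 to 1.02 for Srebf1, so the values do not show that the treatments act alike.

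For each member the genes with the most similar profile over the 14 neuron libraries were drawn from 11813 genes. These had a mean of 5 CPM or more. Likeness was the root mean square (RMS) difference of log2 CPM after subtracting each experiment's control mean. Predicted genes (Gm numbers and Rik names) were left out of the nearest genes named here, and the other members were ranked apart. Libraries of an experiment share their control, so the likeness is a description only. Nearest to Stard4 were Hmgcs1 (0.146), Nsdhl and Msmo1, all of cholesterol synthesis, and nearest to Srebf2 were Idh1 (0.104), the cytosolic isocitrate dehydrogenase, Aacs, which activates acetoacetate, and Acly. Insig1 had Acat2 (0.141), the cytosolic thiolase, then Scube1 and Rab33a. Srebf1 had Cit (0.131), Fgfr3 (0.132) and Gli2 (0.145), of which Fgfr3 is in the astrocyte marker list. Scap lay next to Mgat1, Ganab and Slc25a3 (0.054 to 0.057), Mbtps1 next to Ddb1, Cttn and Calcoco1 (0.064 to 0.069), Mbtps2 next to Tmx4, Gpatch2l and Pnpla8 (0.055 to 0.065), and Insig2 next to Arl1, Zfp53 and Disp1 (0.107 to 0.109). Among the members themselves, the nearest to Stard4 was Insig1 (0.366), to Insig1 it was Srebf2 (0.306), and to Srebf1 it was Mbtps1 (0.262). Scap and Mbtps1 were the closest pair (0.109), and both departed little from the controls, with RMS departures of 0.174 and 0.181 against 0.878 for Stard4.

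In hippocampus each group was 1 library, so nothing was tested, and intervals around the log2 ratios of CPM cover counting error only. Apoe, the target of the shRNA, was at 1697 CPM with the control shRNA and no FC, 2797 with the control shRNA and FC, and 1384 with the ApoE shRNA and FC. It was thus lower by 1.02 on the log2 scale than in the control shRNA library with FC, and by 0.29 than in the one without. Per kilobase Srebf2 again led, at 34.2, 34.2 and 38.7 CPM per kb in that order of libraries. The Insig genes were nearer to each other than in neurons, with Insig1 to Insig2 ratios per kilobase of 1.32, 1.22 and 1.35 against 4.50 to 6.63 in the control neuron libraries. Insig2 was at 52.13, 47.28 and 51.70 CPM, above its highest neuron value of 30.02, and Mbtps2 at 27.25, 31.99 and 24.24 CPM was below its lowest neuron value of 56.09. Tissue and culture were not compared by a test, and the tables were counted separately.

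Between the hippocampus libraries the members differed little. A log2 ratio of 0.5 or more in size, where the higher library held 100 counts or more, was taken as past the fold. With FC against no FC, 0 of 8 members were past it, beside 20.4% of 12510 genes (14.3% higher and 6.13% lower). Srebf1 was at 97.65 against 75.74 CPM (0.37, interval 0.26 to 0.47), Srebf2 was equal at 245.8 CPM in each, and Insig1 was at 51.50 against 61.16 CPM (−0.25, interval −0.38 to −0.12). Scap (−0.24), Mbtps1 (−0.16) and Insig2 (−0.14) were also lower beyond counting error, and Mbtps2 (0.23) was higher. The interval of Stard4, −0.29 to 0.09, includes 0.

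With the ApoE shRNA against the control shRNA, both with FC, 1 of 8 members was past the fold, against 27.4% of 12474 genes (20.7% lower and 6.65% higher). That gene was Srebf1, at 65.67 against 97.65 CPM (−0.57, interval −0.68 to −0.47). Scap (99.01 against 78.93 CPM, 0.33), Insig1 (62.23 against 51.50, 0.27), Mbtps1 (111.5 against 93.21, 0.26) and Srebf2 (278.3 against 245.8, 0.18) were higher with the ApoE shRNA beyond counting error. Mbtps2 was lower (24.24 against 31.99 CPM, −0.40, interval −0.58 to −0.22). Stard4, at 21.59 against 24.40 CPM, and Insig2, at 51.70 against 47.28, had intervals that include 0. The ApoE shRNA library with FC against the control library without FC gave 0 members past the fold, beside 9.93% of 11980 genes (1.78% higher and 8.16% lower), with the lowest ratio in Stard4 (−0.28, interval −0.47 to −0.08) and Srebf1 at −0.21.

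Cell markers differed between these libraries as well. Summed microglia markers were at 412, 1701 and 308.3 CPM (no FC, FC, ApoE shRNA with FC), summed astrocyte markers at 6229, 8283 and 5072, and summed neuron markers at 12230, 10130 and 12710. In the same order, oligodendrocyte lineage markers summed to 3329, 4282 and 3363 CPM, and vessel and fibroblast markers to 386.8, 363.5 and 255. Srebf1 and Mbtps2 were highest where the astrocyte and microglia markers were highest, and Scap, Insig1, Insig2 and Mbtps1 were lowest there. The part of the markers in these ratios was not tested. With FC against no FC, 0 of 13 SREBP2 targets with enough counts were higher past the fold and 3 lower. Their median was −0.25 against 0.03 for all genes, of which 14.3% were higher past the fold and 6.13% lower. With the ApoE shRNA against the control shRNA 2 were higher and 1 lower (median 0.24 against −0.02), beside 6.65% and 20.7% of all genes. These ratios rest on single libraries.

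**Figure D4:**
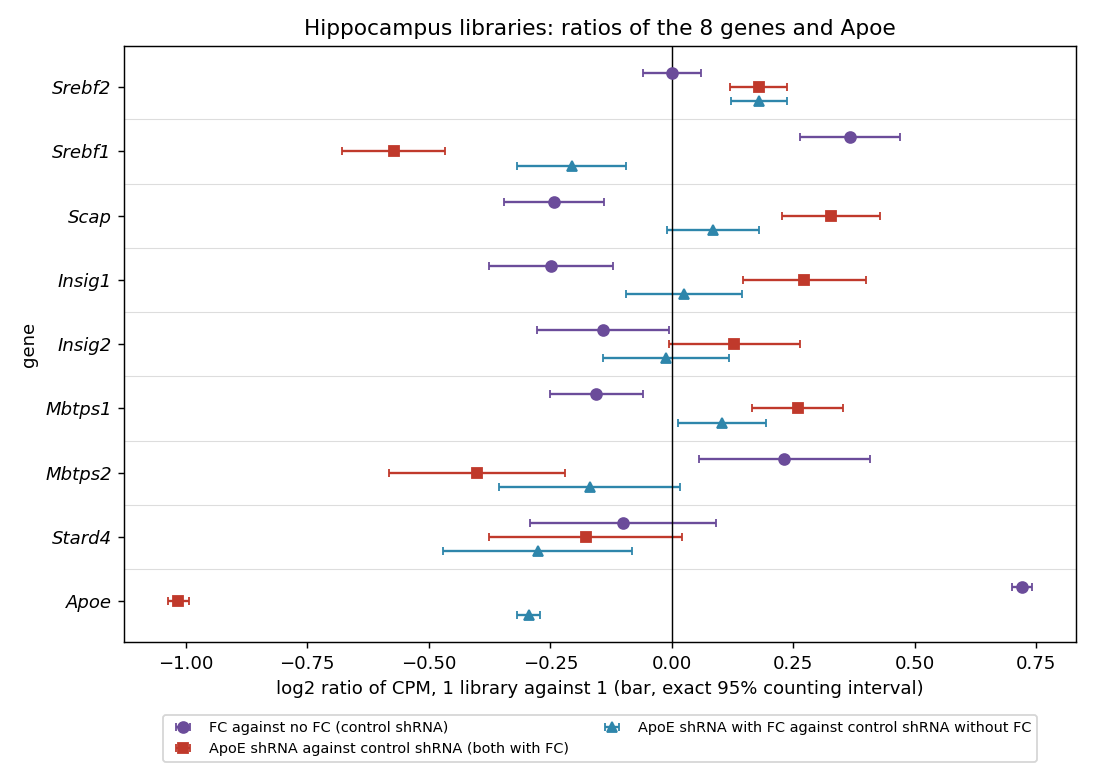
The horizontal axis gives the log2 ratio of CPM between single hippocampus libraries, with exact 95% counting intervals, for the 8 genes and Apoe on the vertical axis. Srebf1 at −0.57 (ApoE shRNA against control shRNA) is the only member beyond 0.5 in size, while Apoe reached 0.72 and −1.02.

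Some exons of the members are shared with other genes in GENCODE M21, and the strand setting of the counting is not given in the sources used here. Mbtps2 shares 2867 bases of exon with Yy2 on the same strand, Scap 985 bases with 5830462I19Rik on the opposite strand, and Srebf1 109 bases with Rai1 on the opposite strand. Reads from these stretches may have been left out or assigned to either gene, so the levels of Mbtps2 and Scap are less certain than those of Srebf2, Insig1 and Stard4, which share no exon bases in that annotation.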

How the data were processed

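Total RNA from 17 libraries was sequenced after the NEBNext Ultra kit, with 2 μg input per the labels' protocols. The authors deposited raw counts per gene in 4 tables, with no normalization; HTSeq 0.6.0, HISAT2 2.1.0, Bowtie2 2.2.3 and the build mm10 are listed, per the submitters' processing notes, and the strand setting is not given in the sources used here. In set 2, 1489 genes with no values in the control and ApoE particle columns were left out. Each neuron comparison was fitted on all genes kept by filterByExpr in edgeR 4.0.16 (R 4.3.3, TMM scaling, robust quasi-likelihood F test, Benjamini-Hochberg adjustment, threshold 0.05), and the 3 groups of set 2 shared a fit. The standard error is the absolute log2 fold change divided by the square root of F, and intervals are 95%. Hippocampus ratios of CPM used a prior of 0.5 counts and exact Clopper-Pearson intervals. PCR reads without molecular identifiers are not independent molecules, so these intervals cover counting error only.

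Alternatives were DESeq2 1.42.0, its size factors, library totals, no filter, a replicate block and leaving out each library. The main edgeR fits were tested on simulated counts with the same fixed spread for every table, except for the comparisons of the reconstituted particle. The alternatives were not tested in this way. The members and gene lists were chosen with earlier results of these data known. From each list at most the 3 called genes with the lowest adjusted p were named, and others where a count was 5 or fewer. Levels per kilobase used GENCODE M21 exon lengths, and promoters came from RefSeq.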

Additional observations from a re-analysis of the deposited data

Results flagged for a closer look

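The effect of the ApoE particle differed between set 1 and set 2 in 7 of the 8 genes, beside 31.1% of 17098 tested genes, by the interaction term of edgeR over both sets (set 2 minus set 1, log2). The difference was −1.14 for Srebf1, which rose in set 1 (0.32) and fell in set 2 (−0.79). It was 1.39 for Insig1, which fell in set 1 (−1.50) and was not called in set 2 (−0.08). Stard4 (0.93) and Srebf2 (0.37) fell in both sets, and by more in set 1. The Srebf2 difference was called in 10 of 13 alternatives, and the set 1 rise of Srebf1 in 7 of 9. The remaining differences were −0.48 for Mbtps1, 0.40 for Mbtps2 and −0.31 for Scap, and that of Scap was called in 5 of 13 alternatives and that of Mbtps2 in 8 of 13. Beside them, called terms were negative for 7 of 10 astrocyte markers and 10 of 10 proliferating cell markers. They were positive for 8 of 12 neuron markers, and 0 markers in each of these lists were called the other way. Their part in the differences was not tested.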

How the results depend on the processing

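No member reversed a called direction under any alternative run. In the ADM comparison 3 members were called in place of 0 with DESeq2, without the filter on low counts and with the replicate block, and 0 to 2 over the left-out libraries; the count of all genes was 333, 128 and 465, and 0 to 641. Set 1 gave 3 to 7 members and 3521 to 7610 genes over the left-out libraries. In set 2, leaving out libraries of the groups compared, the ApoE particle gave 2297 to 2942 genes and the reconstituted particle 1 to 4, and the latter also gave 8 without the filter, 1 with the block and 4 when only the groups compared were fitted. The difference of particle effects gave 4 to 7 members and 3492 to 6245 genes. The difference between ADM and set 1 gave 1 gene with DESeq2 size factors, 62 without the filter, 237 with DESeq2, 502 with the block and 0 to 555 over the left-out libraries, with 0 members in each. A minimum of 20 counts in hippocampus gave 4424, 5408 and 2709 genes past the fold (FC, ApoE shRNA with FC, and ApoE shRNA against the library without FC), because more genes of low count were included. The other causes were not tested. Where 1 library was left alone in a group, it was assumed to vary like the others.

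Replicate numbers are shared between groups, but the labels do not say that they mark a shared culture. Same-numbered deviations correlated at 0.48 in the ADM table, 0.02 in set 1 and between −0.08 and 0.04 in set 2. With the replicate block the adjusted p was 0.0121 for Stard4, 0.0166 for Insig1 and 0.0180 for Srebf2 in the ADM comparison, and no other member call changed. With depths of 14.62 M to 19.14 M counts, Insig2, the member with the fewest neuron reads, had the widest interval in set 2, and 2 libraries per group limit all neuron results.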
